A study of Saccharomyces cerevisiae with 6 samples.

Results

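The genes described here build, fold and clear the proteins of the endoplasmic reticulum (ER) of the budding yeast Saccharomyces cerevisiae. The set holds 39 genes chosen by name for their roles in sensing unfolded proteins, in folding, in translocation across the ER membrane and in ER-associated degradation (ERAD). Each of the 39 was matched by its symbol to exactly 1 probe set of an Affymetrix expression array, among 5498 probe sets that the probe annotation names for S. cerevisiae. Levels were compared between 3 arrays of wild-type cells and 3 arrays of cells that lack PMR1, the Golgi pump for calcium and manganese, which is also known to supply calcium to the ER of this yeast.

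The labels give the wild type as mating type a with deletions of URA3, LEU2, HIS3 and MET15, a gene now called MET17, and the deletion strain as derived from that background. The background is given as BY4147 for all samples, but the genotype of the deletion strain, NGY051, reads BY4741 pmr1Δ::kann, a marker replacement of the pump gene. Cells of both strains were in exponential phase in rich YPAD medium with 5 mM CaCl2, so added calcium was common to both groups and no sample without it was analysed here. Whether the replicates came from separate cultures is not stated, so the p-values rest on the spread between these samples, and that spread may be technical.

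Proteins enter the yeast ER through the Sec61 channel, where Hsp70 chaperones, isomerases and oxidases fold them and form their disulfide bonds. When unfolded proteins build up, the membrane kinase and nuclease Ire1 splices the HAC1 mRNA, and the Hac1 transcription factor made from it raises the transcription of many genes of folding, translocation and ERAD. KAR2, PDI1, EUG1, FPR2 and ERO1 are among its long-known targets. Proteins that fail to fold are moved back to the cytosol, marked with ubiquitin by the Hrd1 or Doa10 ligase and pulled out of the membrane by Cdc48.

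The deletion of PMR1 followed the labels. PMR1 (YGL167C) had log2 levels of 11.81, 11.79 and 11.84 on the wild-type arrays and 2.79, 3.45 and 3.16 on the deletion arrays, below the array background in all 3 deletion arrays. The marker genes given as deleted in the background were less uniform. URA3 and MET17 were below background on all 6 arrays, but LEU2 was at 5.52 to 5.58 in the wild type and 5.18 to 5.41 in the deletion, and HIS3 at 11.54 to 11.58 over all 6 arrays. URA3 and LEU2 were lower in the deletion strain past the threshold (limma adjusted p = 0.0254 and 0.0349). The URA3 call ended without wild-type array 3 or deletion array 1 or 2 (0.0541 to 0.0712), and that of LEU2 without any 1 array but deletion array 2 (0.0555 to 0.0994). Where the HIS3 and LEU2 probes lie relative to the deleted parts was not examined, so these levels do not check the genotype. Background was taken as the 95th percentile, on each array, of its probe sets for Schizosaccharomyces pombe, a distant yeast, 4.18 to 4.31. All 39 ER genes were above it on all 6 arrays, with a lowest value of 9.00. Deletion replicate 2 stood apart in part: its median over all tested probe sets was 0.04 above the wild-type mean on the log2 scale, against 0.01 and -0.01 for deletion replicates 1 and 3. The summed signals of a-cell and alpha-cell markers also differed between the groups, while those of sporulation markers overlapped. Of 6 a-cell genes 4 were lower and 1 was higher in the deletion (log2 of the summed signal wild type 15.04 to 15.10, deletion 14.58 to 14.65). Of 4 alpha-cell genes 3 were higher and 0 lower (9.46 to 9.59 against 9.73 to 9.84), while the alpha pheromone gene MF(ALPHA)1 was below background on all 6 arrays. Of 7 sporulation genes 2 were lower and 0 higher (9.97 to 10.12 against 9.92 to 10.01), or 28.6% beside 29.2% of all tested probe sets. The part of these markers in the results below was not tested.

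Loss of PMR1 was accompanied by small rises of some ER folding and ERAD genes, while HAC1, IRE1 and KAR2 did not pass the test. Of the 39 genes 10 rose and 0 fell by limma at an adjusted p under 0.05 (Benjamini-Hochberg over all 5498 probe sets). The 10 are EUG1, DFM1, FPR2, ERV2, JEM1, CNE1, UBC7, USA1, PDI1 and YSY6, and their rises lay between 9.02% for YSY6 and 24.4% for EUG1. Over all tested probe sets 29.2% passed in either direction, 17.5% as higher and 11.7% as lower, so the share of ER genes that passed, 25.6%, was near the background of either direction. In such bulk samples, fewer cells with a transcript and less of it per cell cannot be told apart. At an unadjusted p under 0.05 the count was 15 of 39 (38.5%), beside 41.9% of all tested probe sets.

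The direction was uneven. The log2 change was above 0 for 31 of the 39 genes and below 0 for 8, beside 53.2% above 0 among all tested probe sets. The median change of the 39 was 0.06 on the log2 scale, against 0.01 over all tested probe sets. All 3 deletion arrays lay above the wild-type mean for 25 genes and below it for 6. No share over all tested probe sets is given for these counts, so they are not read as unusual. The groups did not overlap for 21 genes, 18 higher and 3 lower in the deletion, where 46.7% of all tested probe sets did not overlap, 27.4% higher and 19.3% lower. Deletion replicate 2 had the highest deletion value for 30 of the 39 genes, and the median of the 39 genes minus their wild-type means was 0.12 on it, 0.07 on deletion replicate 1 and 0.05 on deletion replicate 3. Without it 6 genes passed. The count was 5 without wild-type replicate 1 or without deletion replicate 1 and 6 without wild-type replicate 3, and 0 fell in any of these fits.

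**Figure D1:**
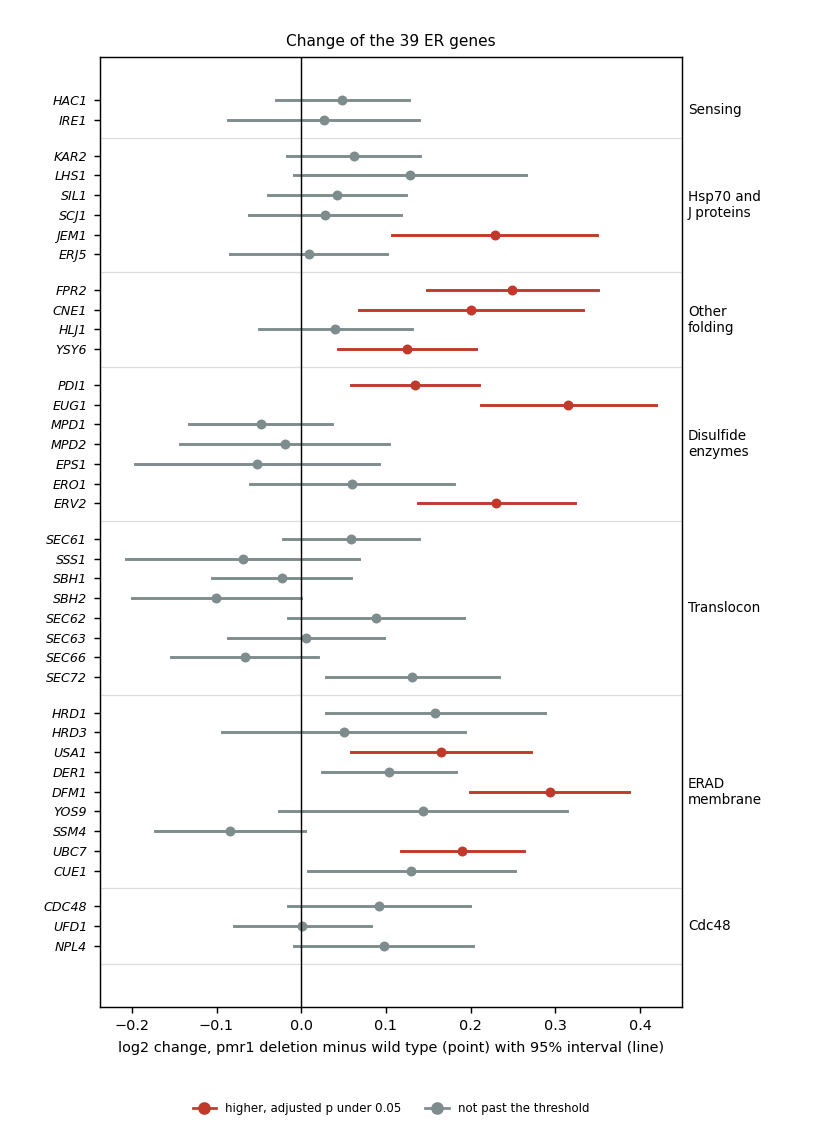
Log2 change of the 39 ER genes in the pmr1 deletion against the wild type (horizontal axis, points) with 95% limma intervals (lines), grouped by role, 3 arrays per group. The 10 genes in red passed the test, all on the right of 0; no translocon or Cdc48 gene is among them.

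**Figure D2:**
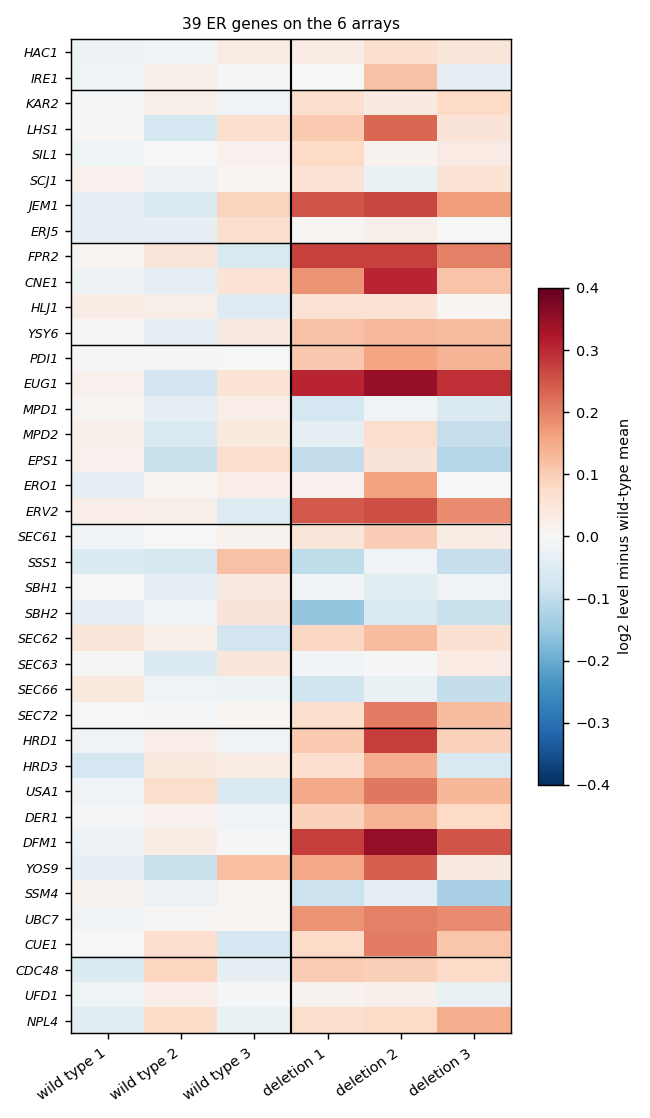
Each row is 1 of the 39 ER genes and each column 1 array; colour gives the log2 level minus the mean of the 3 wild-type arrays, and lines part the roles in the order sensing, Hsp70 and J proteins, other folding factors, disulfide enzymes, translocon, ERAD membrane proteins and Cdc48 complex. EUG1, DFM1 and FPR2 are high on all 3 deletion arrays, and deletion replicate 2 is the darkest column.

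The sizes were small throughout. The estimated change was beyond 1.5-fold for 0 of the 39 genes and for 203 of the 5498 tested probe sets (3.69%). The 95% interval of the change reached 1.5-fold in either direction for 0 of the 39 genes. The 10 that rose had a median log2 change of 0.21, beside 0.26 for all 963 probe sets that were higher past the threshold. EUG1, the largest, ranked 351 of those 963 by size, and DFM1 ranked 396. The SE of a member's change was 0.031 to 0.072 on the log2 scale. For the 29 genes that did not pass, the estimates ran from -6.72% to 11.6% and their intervals from -13.3% to 24.3%. The upper end of 24.3% belongs to YOS9 and the lower end to SSS1.

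**Figure D3:**
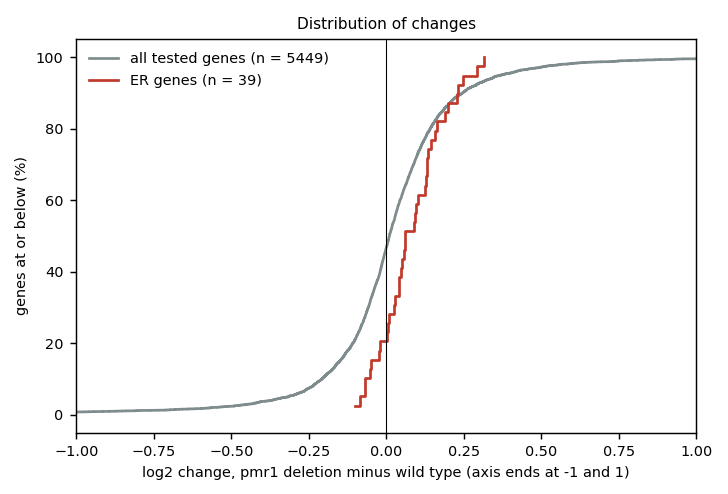
Cumulative share of genes (vertical axis, percent) at or below a given log2 change (horizontal axis) for the 39 ER genes in red and for all 5449 tested genes in grey, 1 probe set per gene. The ER genes span -0.10 to 0.32, a narrow range on this axis, and most lie right of 0.

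The genes that sense unfolded proteins were measured at nearly equal levels in both strains. HAC1, which encodes the transcription factor of the response, had log2 levels of 13.92, 13.92 and 13.97 on the wild-type arrays and 13.97, 14.00 and 13.99 on the deletion arrays. All 3 deletion values were above the wild-type values, but barely: the lowest was 13.9675 and the highest wild-type value 13.9671. The change of 3.43% (95% interval -2.03 to 9.20%) did not pass (limma adjusted p = 0.312). The array level says nothing on splicing, because the sources used here do not place the probes relative to the HAC1 intron. IRE1, the sensor itself, had 9.61, 9.65 and 9.62 on the wild-type arrays and 9.62, 9.74 and 9.58 on the deletion arrays, with overlapping groups and a change of 1.85% (-5.78 to 10.1%, adjusted p = 0.713).

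Among the Hsp70 chaperones of the lumen and their cofactors, 1 of 6 rose and 0 fell (16.7%, beside 29.2% of all tested probe sets). KAR2, the ER Hsp70 known as BiP in animals, had log2 levels of 13.72, 13.75 and 13.71 on the wild-type arrays and 13.79, 13.76 and 13.80 on the deletion arrays. The groups did not overlap, but the gap between the highest wild-type and the lowest deletion array was small beside their spread. The change was 4.37% (95% interval -1.13 to 10.2%, limma adjusted p = 0.205), and it passed narrowly with an intensity trend in the variance prior (0.0497) and with array weights (0.0462). The signals of HAC1 and KAR2 stood at percentiles 96.8 and 95.8 of the tested probe sets, in the upper range of an array whose highest tested value was 14.97. PDI1, which passed as higher, stood above both at percentile 97.2. Whether signals this high respond less to a change was not tested.

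JEM1, a J-domain protein that works with Kar2 in folding, ERAD and nuclear fusion, had 9.03, 9.00 and 9.14 on the wild-type arrays and 9.31, 9.32 and 9.22 on the deletion arrays. All deletion arrays were above all wild-type arrays, and the rise was 0.23 on the log2 scale (SE 0.051, adjusted p = 0.0165), or 17.1%. Its adjusted p was 0.0568 without wild-type replicate 1, 0.0632 without deletion replicate 1 and 0.0514 without deletion replicate 2. LHS1 and SIL1, the nucleotide exchange factors of Kar2, had estimates of 9.30% (-0.61 to 20.2%) and 2.98% (-2.67 to 8.96%). SCJ1 and ERJ5, further J-domain partners in the lumen, had estimates of 1.95% and 0.61%, with overlapping groups.

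Of 4 other folding factors and ER membrane proteins 3 rose and 0 fell (75%, beside 29.2% of all tested probe sets). FPR2, a prolyl isomerase of the FKBP family, had log2 levels of 11.61, 11.65 and 11.54 on the wild-type arrays and 11.87, 11.87 and 11.80 on the deletion arrays. The groups were well apart, with a rise of 0.25 (SE 0.043, limma adjusted p = 0.00589). CNE1, the yeast relative of calnexin, had 10.10, 10.09 and 10.18 on the wild-type arrays and 10.30, 10.43 and 10.24 on the deletion arrays. Its deletion arrays were all higher but widely spread, and the rise of 0.20 (SE 0.056, adjusted p = 0.0358) did not pass without wild-type array 1, 2 or 3 or deletion array 1 or 2 (adjusted p 0.0519 to 0.1). YSY6, a small ER membrane protein related to the animal stress protein RAMP4, had 12.48, 12.44 and 12.51 on the wild-type arrays and 12.60, 12.61 and 12.61 on the deletion arrays. The deletion values were nearly the same on all 3 arrays, and the rise was 0.12 (SE 0.034, adjusted p = 0.0352). That call ended without any 1 of the 6 arrays (adjusted p 0.0503 to 0.0998). HLJ1, a J-domain protein on the cytosolic side of the ER membrane, had an estimate of 2.82% with overlapping groups.

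Of 7 disulfide isomerases and oxidases 3 rose and 0 fell (42.9%, beside 29.2% of all tested probe sets). EUG1, a nonessential relative of the main isomerase, had log2 levels of 11.50, 11.41 and 11.54 on the wild-type arrays and 11.79, 11.83 and 11.78 on the deletion arrays. Its lowest deletion array was well above its highest wild-type array, and it rose by 0.32 (SE 0.044, limma adjusted p = 0.00257), which is 24.4% (95% interval 15.9 to 33.7%). ERV2, a sulfhydryl oxidase that can supply oxidising equivalents beside Ero1, had 11.34, 11.33 and 11.26 on the wild-type arrays and 11.56, 11.57 and 11.50 on the deletion arrays. The groups did not overlap, and the rise was 0.23 (SE 0.039, adjusted p = 0.00576).

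PDI1, the essential protein disulfide isomerase, had 13.97, 13.98 and 13.98 on the wild-type arrays and 14.08, 14.13 and 14.11 on the deletion arrays. Wild-type replicates agreed to within an SD of 0.007, and the rise was 0.13 (SE 0.032, limma adjusted p = 0.0212). Its adjusted p was 0.0746 without wild-type replicate 1, 0.059 without wild-type replicate 3, 0.0566 without deletion replicate 1 and 0.0662 without deletion replicate 3. ERO1, the oxidase that recharges Pdi1, had an estimate of 4.24% (-4.13 to 13.3%). The isomerase relatives MPD1, MPD2 and EPS1, the last a membrane protein, had estimates of -3.27%, -1.35% and -3.56%, each with overlapping groups.

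**Figure D4:**
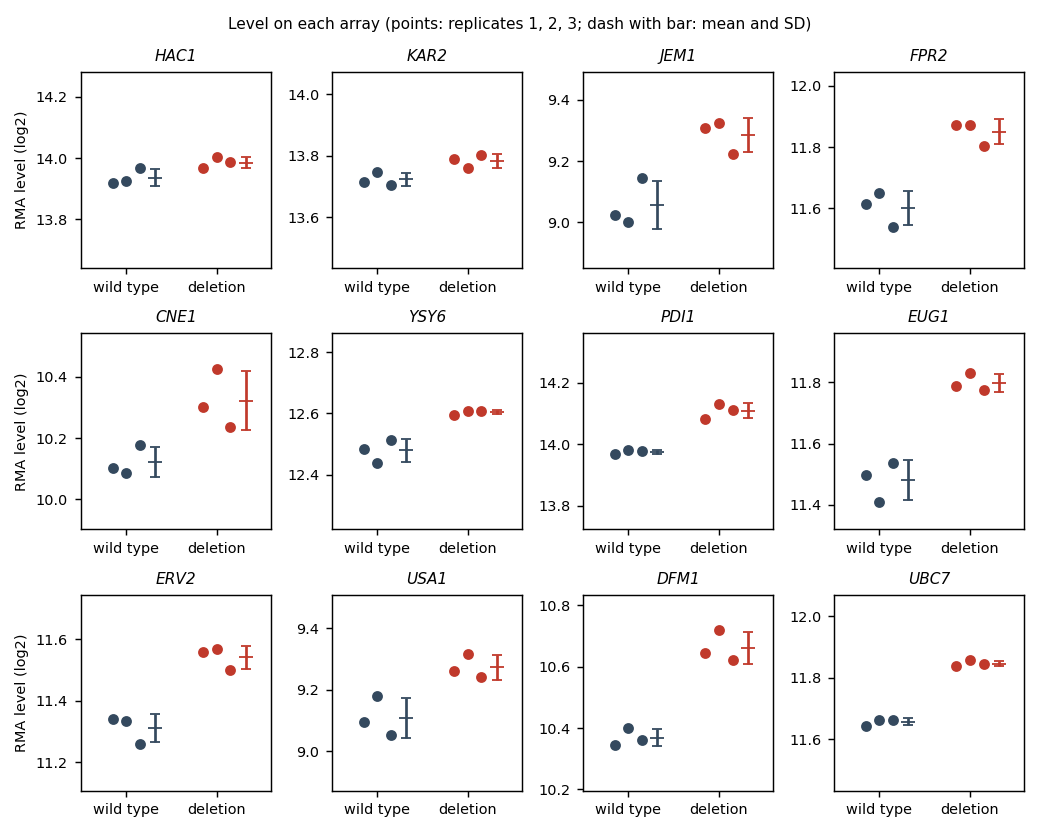
Log2 level on each array (vertical axis, all panels 0.64 units high) of HAC1, KAR2 and the 10 ER genes that rose; points are replicates 1, 2 and 3 from left to right, and dash with bar gives mean and SD of the 3 arrays. Groups are apart by more than the range within either for EUG1, DFM1, FPR2, ERV2, UBC7, PDI1 and, narrowly, YSY6, and nearly level for HAC1.

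Of the 8 translocon genes 0 rose and 0 fell by limma, beside 29.2% called among all tested probe sets. At an unadjusted p under 0.05 there were 2 (25%), beside 41.9% of all tested probe sets. SEC72, a subunit of the Sec63 complex that serves import after translation, was the closest to a call, with log2 levels of 11.87, 11.86 and 11.88 on the wild-type arrays and 11.94, 12.08 and 12.00 on the deletion arrays. The groups did not overlap, and the change was 0.13 (SE 0.043, adjusted p = 0.0602), with adjusted p 0.0335 under an intensity trend and 0.0411 after median centring. The channel gene SEC61 had an estimate of 4.15% (95% interval -1.51 to 10.1%). SEC62 and SEC63, the channel's partners in import after translation, had estimates of 6.30% and 0.39%.

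The small channel subunits lay on the other side of 0 without passing. SSS1, the essential gamma subunit, had an estimate of -4.69%, and SBH1, the beta subunit, of -1.59%. SBH2, the beta subunit of the second channel built on Ssh1, had an estimate of -6.72% (-12.9 to -0.053%, limma adjusted p = 0.117). SEC66, of the Sec63 complex, had an estimate of -4.53%. For SBH2 and SEC66 all deletion values were below all wild-type values, and both passed with array weights (adjusted p 0.0239 and 0.0375).

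Of 9 ERAD ligases and membrane partners 3 rose and 0 fell (33.3%, beside 29.2% of all tested probe sets). DFM1, a rhomboid-like protein that moves membrane substrates out of the ER, had log2 levels of 10.35, 10.40 and 10.36 on the wild-type arrays and 10.65, 10.72 and 10.62 on the deletion arrays. The groups were apart by more than the spread within either, and the rise was 0.29 (SE 0.040, limma adjusted p = 0.00235), or 22.5%. UBC7, the ubiquitin-conjugating enzyme that serves both the Hrd1 and the Doa10 ligase, had 11.64, 11.66 and 11.66 on the wild-type arrays and 11.84, 11.86 and 11.84 on the deletion arrays. Its SD was 0.011 over the wild-type arrays and 0.010 over the deletion arrays, and it rose by 0.19 (SE 0.031, adjusted p = 0.00482).

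USA1, the scaffold that joins Hrd1 to Der1, had 9.09, 9.18 and 9.05 on the wild-type arrays and 9.26, 9.32 and 9.24 on the deletion arrays. The groups did not overlap, and the rise was 0.16 (SE 0.045, limma adjusted p = 0.0334). That call ended without wild-type array 1 or 3 or any 1 of the deletion arrays (adjusted p 0.0619 to 0.0966). HRD1, the ligase, and DER1, its partner in moving soluble substrates, did not overlap between groups either, at 11.6% (adjusted p = 0.0693) and 7.42% (adjusted p = 0.0566). Both passed after quantile normalization, after median centring and with array weights (adjusted p 0.0166 to 0.0468). CUE1, which anchors Ubc7 at the membrane, had an estimate of 9.43% (adjusted p = 0.102), the lectin YOS9 of 10.5% (adjusted p = 0.179) and HRD3, the partner that stabilises Hrd1, of 3.52% (adjusted p = 0.573). SSM4, which encodes the Doa10 ligase, was the one member of this role with an estimate below 0, -5.67% (95% interval -11.3 to 0.27%, adjusted p = 0.134), and its deletion arrays were all below its wild-type arrays. It passed as lower after quantile normalization (0.0482) and with array weights (0.0258).

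Of the 3 genes of the Cdc48 complex, which extracts ubiquitinated proteins, 0 rose and 0 fell by limma and 0 had an unadjusted p under 0.05. Among all tested probe sets 29.2% passed and 41.9% had an unadjusted p under 0.05. NPL4 had log2 levels of 10.52, 10.63 and 10.53 on the wild-type arrays and 10.63, 10.64 and 10.71 on the deletion arrays. Wild-type replicate 2 reached into the deletion range, and the change was 6.98% (adjusted p = 0.147). CDC48, the ATPase, had an estimate of 6.58% (adjusted p = 0.172) and showed the same high wild-type replicate 2. Without that array CDC48 was at 0.14 on the log2 scale (adjusted p = 0.03) and NPL4 at 0.13 (adjusted p = 0.0496). UFD1, the other cofactor, had an estimate of 0.10% (-5.33 to 5.84%).

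Related genes could be compared for their change on the same arrays. The change of EUG1 was 0.18 larger than that of PDI1 on the log2 scale (SE 0.042, 95% interval 0.07 to 0.30), and that of DFM1 was 0.19 larger than that of its relative DER1 (SE 0.016, 0.15 to 0.23). These intervals rest on the spread between arrays within groups and assume that it is normal. EUG1 and PDI1 also differ in signal (percentiles 76.7 and 97.2 of the tested probe sets), and whether both probe sets respond alike to a change was not tested. In both pairs the difference was larger on every deletion array than on every wild-type array. The two-sided exact permutation p was 0.1 for each, the smallest that 3 arrays against 3 allow, and 0.2 adjusted over the 4 pairs, so the permutation test cannot pass a threshold of 0.05 with this number of arrays. MPD2 against MPD1 differed by 0.03 (SE 0.036, interval -0.07 to 0.13, exact p = 0.5) and SBH2 against SBH1 by -0.08 (SE 0.043, -0.20 to 0.04, exact p = 0.2), both with overlapping arrays.

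A further 62 genes of ER entry and quality control, listed in 5 groups by function, were read from the same fit. Of these 11 rose and 1 fell by limma, 19.4% of them beside 29.2% of all tested probe sets, and their median log2 change was 0.05. Between 6 and 11 rose when 1 array was left out, with 6 without deletion replicate 1 and 7 without wild-type replicate 1 or deletion replicate 2. The largest rises were in the list of other ERAD and Cdc48 cofactors, where 4 of 14 (28.6%) rose and 0 fell. DOA1, a Cdc48 cofactor needed to keep up the ubiquitin pool, had log2 levels of 11.28, 11.45 and 11.27 on the wild-type arrays and 11.74, 11.71 and 11.82 on the deletion arrays, a rise of 0.42 (SE 0.059, adjusted p = 0.00256). ASI1, a subunit of the ubiquitin ligase of the inner nuclear membrane, had 10.63, 10.70 and 10.60 and then 10.99, 11.20 and 10.99, a rise of 0.42 (SE 0.066, adjusted p = 0.00427). Neither gene overlapped between groups, and both estimates were larger than that of any of the 39 genes. OTU1, a deubiquitinase that binds Cdc48, rose by 0.24 (adjusted p = 0.0169), with a call that ended without wild-type array 1 or 3 or deletion array 1 or 3 (0.053 to 0.0583). The fourth that rose was UBX2, which recruits Cdc48 to the ER membrane.

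Among 10 other factors of HAC1 splicing and Ire1 signalling 3 rose and 0 fell by limma, or 30% beside 29.2% of all tested probe sets. KIN1, a protein kinase linked to HAC1 mRNA processing and to exocytosis, had log2 levels of 9.27, 9.40 and 9.35 on the wild-type arrays and 9.65, 9.75 and 9.84 on the deletion arrays. The groups did not overlap, and it rose by 0.41 (SE 0.060, adjusted p = 0.00334), or 32.7%. ORM2, a regulator of sphingolipid synthesis that responds to ER stress, rose by 0.25 (SE 0.038, adjusted p = 0.00381). DCR2, a phosphatase that acts on Ire1, rose by 0.15 (adjusted p = 0.0451), a call that ended without wild-type array 1 or 2 or any 1 of the deletion arrays (0.0804 to 0.131), after quantile normalization (0.0819) and after median centring (0.0653). TRL1, the ligase that joins the HAC1 exons, had an estimate of 0.05 on the log2 scale and did not pass.

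In the remaining lists few genes passed: 16.7%, 15.4% and 7.69% in the order below, beside 29.2% of all tested probe sets. Of 12 genes of glycan trimming and other ER quality control 2 rose and 0 fell: the ER mannosidase MNS1, by 0.26 (limma adjusted p = 0.0108), and GTB1, the second subunit of glucosidase II, by 0.14 (adjusted p = 0.0235, and 0.0545 to 0.0733 without wild-type array 1 or deletion array 1 or 2). Of 13 genes of signal recognition, the second channel and the signal peptidase 1 rose and 1 fell. YKL154W, which encodes the membrane subunit of the receptor for signal recognition particles, fell by 0.21 on the log2 scale (adjusted p = 0.0164, and 0.0567 without wild-type replicate 1 and 0.0543 without deletion replicate 1). SEC11, the catalytic subunit of the signal peptidase, rose by 0.18 (adjusted p = 0.0394, and 0.0796 to 0.115 without wild-type array 2 or 3 or deletion array 1 or 2). Of 13 genes that insert membrane proteins through the GET and EMC complexes 1 rose and 0 fell, the GET receptor gene GET2, by 0.17 (adjusted p = 0.033, and 0.0703 to 0.105 without wild-type array 1 or 3 or deletion array 1 or 2).

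**Figure D5:**
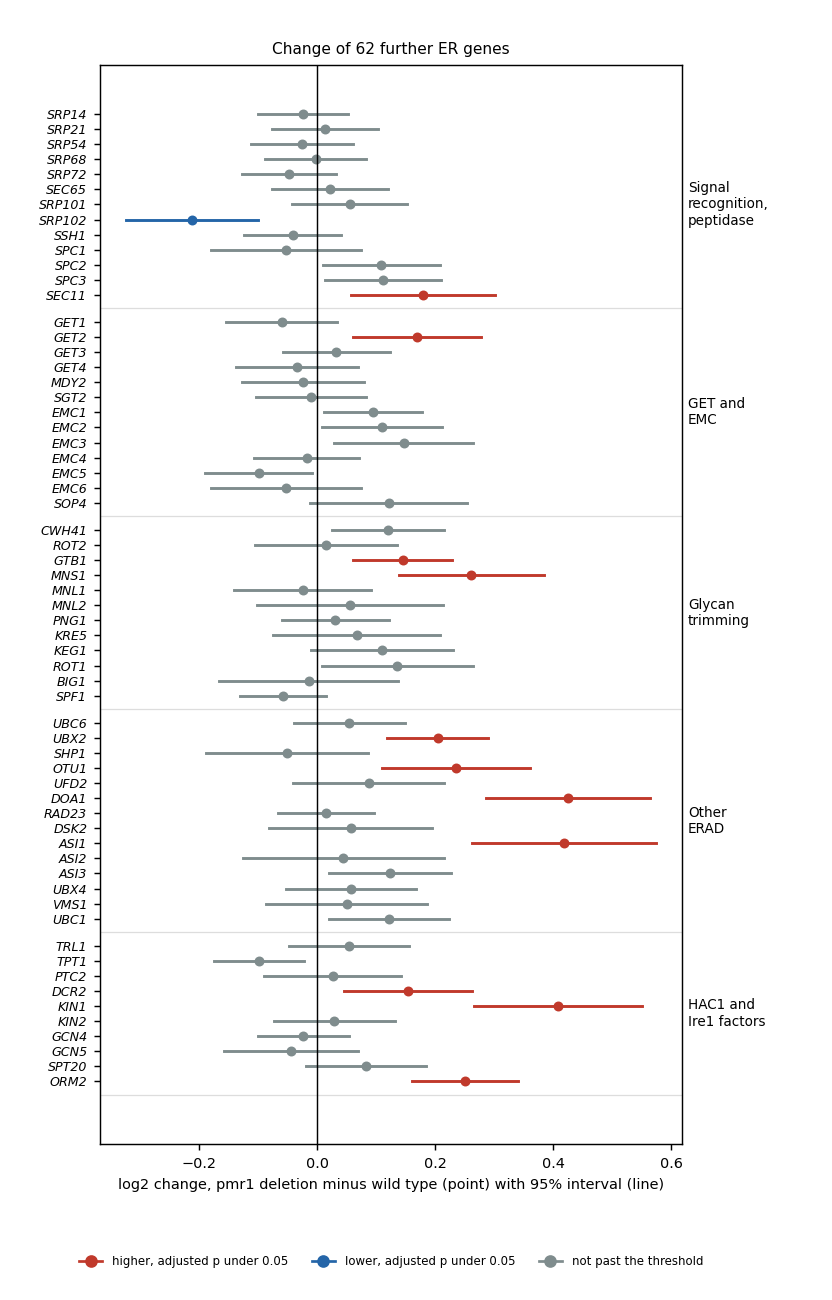
Log2 change of the 62 further ER genes in the pmr1 deletion against the wild type (horizontal axis, points) with 95% limma intervals (lines), by list, 3 arrays per group. DOA1, ASI1 and KIN1 lie farthest to the right, and the receptor subunit gene YKL154W in blue, drawn under its symbol, is the 1 gene that fell.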

How the data were processed

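Total RNA (100 ng) was labelled with biotin by an Affymetrix kit that amplifies from the 3′ end, per the labels' protocols. The deposited table holds log2 values for 10928 probe sets on 6 arrays, and the submitters' processing notes name GCOS, RMA and limma without versions. RMA corrects background, quantile-normalizes and summarises probes, which compresses large folds. Depth does not apply to arrays, and their number limits the precision. The probe annotation and the gene table of assembly R64 named 5498 S. cerevisiae probe sets for 5449 genes. The deposited log2 values were tested with limma 3.58.1 in R 4.3.3 (lmFit, eBayes, 2 groups, two-sided) and adjusted by Benjamini-Hochberg over all of them, threshold 0.05; percentages and intervals are back-transformed. The code was tested on simulated data. Members and lists were chosen with earlier results of these data known. Every member is named, with per-array values for HAC1, IRE1, KAR2, each member past the threshold and the largest change in each role, and up to 3 called genes of each other list; UBX2 and TRL1 were named after their values were seen. Same-numbered replicates were not paired (correlations of their deviations -0.138, 0.000316 and 0.0807). The settings varied were the variance prior (an intensity trend, robust), the scaling (quantile, median), the probe sets tested (without dim ones, with all, without _s_at or _x_at), array weights, a replicate block, gene means and leaving out each array. Genes of the other lists went through them as an addition made after the data were seen. Figures were drawn with matplotlib 3.10.9.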

Additional observations from a re-analysis of the deposited data

How the results depend on the processing

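EUG1, DFM1, FPR2, ERV2 and UBC7 passed the test under all 15 alternatives, and 20 of the 29 ER genes that did not pass stayed short of the threshold under all 15. Of 10 ER genes higher, 5 remained with all probe sets of the array tested, which adds 5430 to the adjustment (JEM1, CNE1, YSY6, PDI1 and USA1 then had adjusted p 0.0696 to 0.155), and 5 to 10 passed when 1 array was left out. With array weights 15 were higher and 3 lower, and after quantile normalization 1 was lower (SSM4) and YSY6 had an adjusted p of 0.0574; the cause was not tested. Over all tested probe sets 963 were higher and 642 lower. Testing all probe sets gave 548 and 325, and array weights gave 1434 and 1087, so more passed with weights throughout, not only among ER genes. The weights ran from 0.367 for wild-type array 2 to 4.79 for deletion array 1, so that fit leaned on deletion array 1. Leaving out 1 array gave 599 to 1041 higher and 373 to 629 lower. The median change of the 39 genes was 0.058 to 0.089 without 1 array. With the replicate block 7 of the 39 passed as higher, without JEM1, CNE1 and YSY6 (adjusted p 0.0546, 0.0816 and 0.0705), and 805 and 570 of all tested. MPD2 minus MPD1 was 0.060 without deletion replicate 3 and -0.00016 without deletion replicate 2. Of the other lists MNS1, UBX2, DOA1, ASI1, KIN1 and ORM2 passed under all 15 alternatives; the other 6 calls ended with all probe sets tested (adjusted p 0.0696 to 0.154), and SEC11 and GTB1 also with the replicate block (0.058 and 0.0635), and SEC11 after quantile normalization (0.0527). Each call rests on 3 arrays against 3, and the smallest change of an ER gene that passed was 9.02%.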
